A study of Mus musculus with 18 samples.

Results

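The heart draws most of its energy from fatty acids, and the genes described here encode the proteins that bring fatty acids into the cardiomyocyte and burn them. Lipoprotein lipase and membrane transporters deliver the fatty acid, acyl-CoA synthetases activate it, the carnitine shuttle carries it into the mitochondrion, and the enzymes of beta-oxidation shorten it step by step while flavoproteins pass its electrons to the respiratory chain. Nuclear receptors of the PPAR family and their co-activators are known to drive many of these genes, and injured or failing hearts are known for a lower output of the pathway. The set was fixed by gene symbol and holds 38 genes. A row of the deposited value table was found for 35 of them, out of 24479 features in all. 34 of these were named through the platform's gene table, and Acsl1 was named through a gene reference by its Entrez ID. The muscle-type carnitine palmitoyltransferase Cpt1b, the heart-type fatty acid-binding protein Fabp3 and the trifunctional protein subunit Hadhb are not analysed here.

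RNA came from the left ventricle of mice of mixed 129/Sv and C57BL/6 background, on Affymetrix mouse gene 2.0 ST arrays, with 3 arrays in each of 6 groups. DKO hearts lack Camk2d and Camk2g, the genes of the kinases CaMKIIδ and CaMKIIγ, in cardiomyocytes only, because both genes are flanked by loxP sites and Cre is driven by the α-MHC promoter. FFFF mice carry the same loxP sites without Cre, and the labels name them wild-type. In each genotype, hearts were taken after a sham operation, 1 day after ischemia/reperfusion (I/R) and 5 days after I/R, where a coronary artery had been tied for 60 min. The labels place the I/R samples in the ischemic area and the sham samples in left ventricular myocardium, while the study's text also speaks of whole hearts, so the operation and the part of the ventricle sampled cannot be told apart. Values are log2 expression values made with RMA, so that a difference of 1 is a doubling. Arrays carry a number within their group and no animal is named, so p-values measure the spread between these arrays, which may be technical in part. In tissue of mixed cells, fewer cardiomyocytes and less RNA per cardiomyocyte cannot be told apart.

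Several features of the arrays touch the values below. Camk2d and Camk2g were lower on all DKO than on all FFFF arrays after sham and at 5 days. The array labelled replicate 1 of DKO hearts 1 day after I/R had 9.71 for Camk2d and 7.10 for Camk2g. Both values lie within the range of FFFF arrays of that day and above the other 2 DKO arrays (at most 8.31 and 6.21), so they go against its label. Its value is the first of the 3 given for DKO hearts at 1 day throughout. Without it, 0 of the 35 genes passed in DKO hearts at 1 day (median -0.47, against calls of 0.404% lower and 0.437% higher over all features), 0 between the genotypes at 1 day (median 0.07, against 0.049% lower and 0.0123% higher) and 0 in the difference of their responses (median 0.24, against 0.0204% lower and 0% higher). All arrays were female by Xist, except 2 of 3 arrays (replicates 1 and 2) of each genotype at 5 days. The 18 markers of cardiomyocyte structure averaged 11.65 to 12.66 on every array, whereas the 8 adipocyte markers stayed between 4.23 and 4.43, below the arrays' median of 4.85. In the fatty acid genes, 3 I/R arrays lay close to sham, namely DKO 1 day replicate 2, FFFF 1 day replicate 2 and FFFF 5 days replicate 1.

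The 250 bases before the start of each gene were searched on both strands for the letters of nuclear receptor sites. RefSeq promoters (GRCm38.p6) were at hand for 29 of the 35 genes. The direct repeat AGGTCANAGGTCA, a consensus of PPAR sites, was found in 0 of 29 promoters and in 0.0407% of all genes with a promoter. The extended site TCAAGGTCA, known for estrogen-related receptors, was found in 0 of 29 and in 0.422%. The hexamer AGGTCA, which both longer motifs contain, was found in 6 of 29 (20.7%), against 15.8% of all genes. These are Acadm, Acadvl, Cd36, Cpt1a, Echs1 and Ucp3. At 5 days in FFFF hearts, Acadm, Acadvl, Echs1 and Ucp3 fell, whereas Cd36 (-0.29) and Cpt1a (0.01) did not pass. Shown are 3 of these genes that were picked because they fell, written 5′ to 3′ on the strand of the gene with the hexamer, or its reverse complement, in capitals. Echs1 was lower on every I/R array, Acadm passed in most fits, and Ucp3 had the widest fall.
Echs1 (chr7:140116422-140116671, minus strand): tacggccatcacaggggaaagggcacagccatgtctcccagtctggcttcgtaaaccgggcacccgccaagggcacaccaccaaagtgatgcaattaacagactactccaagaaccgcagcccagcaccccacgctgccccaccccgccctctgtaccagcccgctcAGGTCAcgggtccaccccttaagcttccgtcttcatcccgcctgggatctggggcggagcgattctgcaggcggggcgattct
Acadm (chr3:153944644-153944893, minus strand): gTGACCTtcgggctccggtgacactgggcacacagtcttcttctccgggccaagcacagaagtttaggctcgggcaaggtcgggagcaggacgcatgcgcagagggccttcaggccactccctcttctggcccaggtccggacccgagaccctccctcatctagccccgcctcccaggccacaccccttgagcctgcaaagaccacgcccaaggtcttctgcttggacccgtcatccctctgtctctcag
Ucp3 (chr7:100472741-100472990, plus strand): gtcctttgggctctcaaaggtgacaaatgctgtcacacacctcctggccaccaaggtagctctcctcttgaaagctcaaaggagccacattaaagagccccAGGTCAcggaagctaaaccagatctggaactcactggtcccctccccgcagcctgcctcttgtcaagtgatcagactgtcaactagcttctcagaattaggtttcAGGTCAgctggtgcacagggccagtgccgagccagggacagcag
Echs1 and Acadm hold 1 hexamer each and Ucp3 holds 2. A match describes the sequence only, and where there is none, these letters are absent from this window and nothing more.

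On every I/R array of both genotypes, most fatty acid genes were lower than after sham. Counted against the mean of the sham arrays of the same genotype, 29, 27 and 32 of the 35 genes were below it on the DKO arrays of 1 day and 32, 32 and 31 on the DKO arrays of 5 days. On FFFF arrays the counts were 33, 29 and 31 at 1 day and 30, 33 and 32 at 5 days. The heat map of all genes and arrays shows this shift in the steps after activation on every I/R array. Among the 3 activating enzymes Acsl1 alone was lower on every I/R array, and the median of the 3 was above sham on 10 of 12 arrays. Among the 4 uptake genes the median was above sham on 2 of 12. The heat map also has paler columns for the 3 arrays named above, and pale or red rows for Acsl3, Acsl4, Fabp4, Cpt1a, Cd36, Acaa1a and Pdk4.

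**Figure D1:**
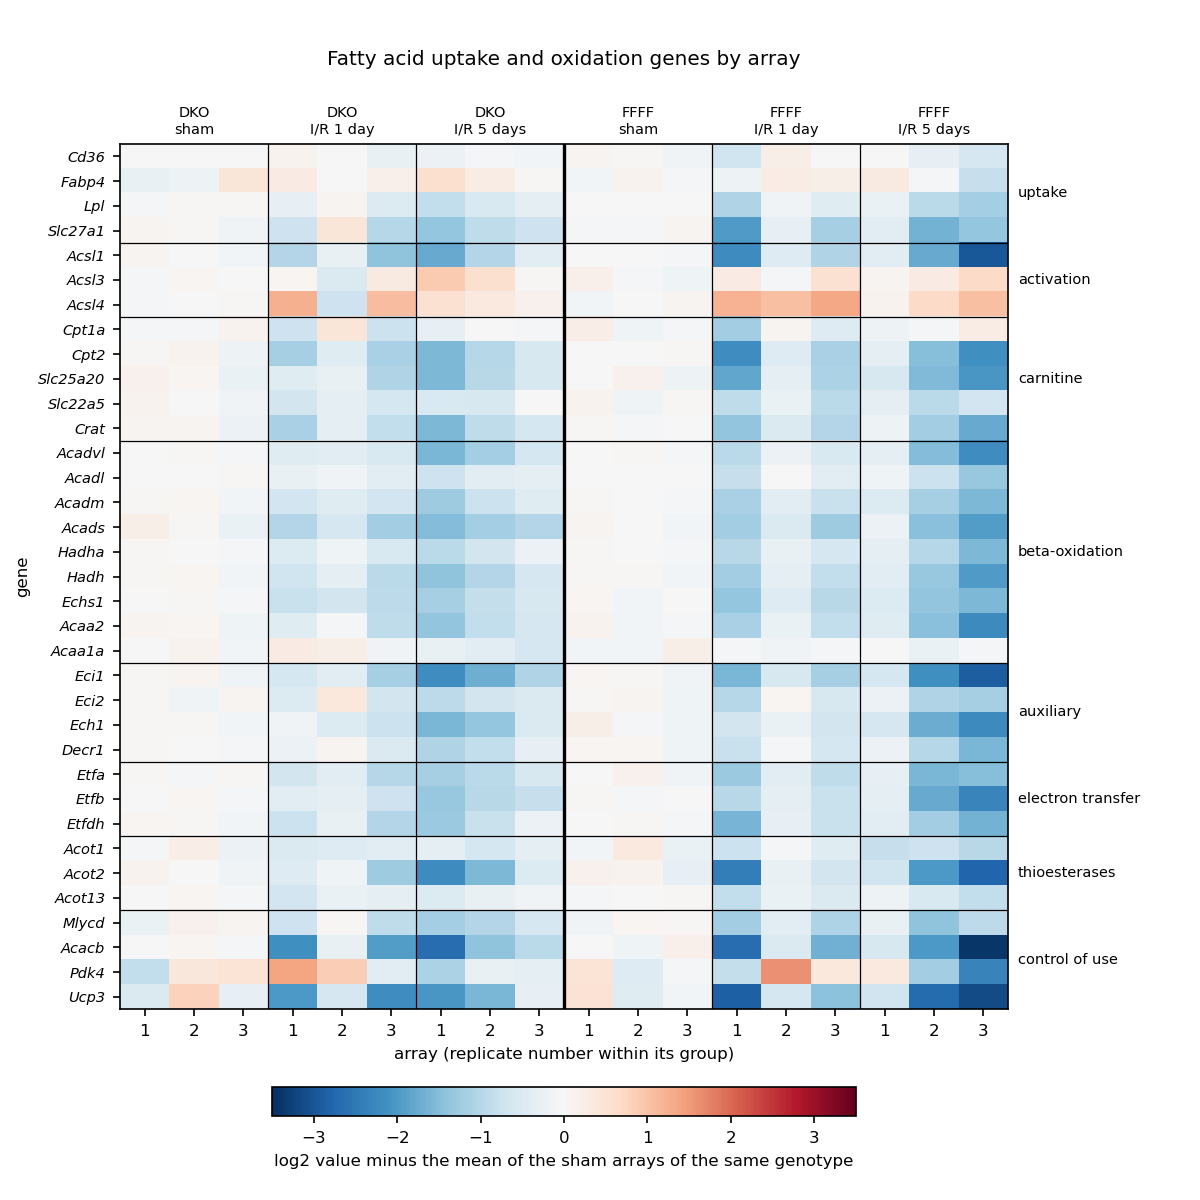
Log2 value of each of the 35 genes (rows, grouped by step) on each of the 18 arrays (columns, DKO left and FFFF right), as the difference from the mean of the 3 sham arrays of the same genotype, where blue is lower and red is higher. Most rows are blue on the I/R arrays, while Acsl4 is red on 5 of 6 arrays of 1 day and on all 6 arrays of 5 days.

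In DKO hearts, the median log2 difference of the 35 genes from sham was -0.46 at 1 day and -0.85 at 5 days. In FFFF hearts it was -0.69 at 1 day and -1.07 at 5 days, while the median over all features lay between -0.02 and 0.01 in these comparisons. All 4 of them use the sham arrays of their genotype, so the days are not independent. In DKO hearts at 5 days, 2 of 35 genes (Acads and Eci1) fell at a limma adjusted p below 0.05 and 0 rose, against 2.84% and 3.23% of all features. In FFFF hearts at 5 days, 20 of 35 genes fell and 0 rose, against 10% and 8.26% of all features. In DKO hearts at 1 day, 0 of 35 genes passed, against 5.11% of all features in either direction. At an unadjusted p below 0.05 there were 9, all lower, against 22.1% of all features. At 1 day in FFFF hearts, 2 genes (Slc22a5 and Echs1) fell and 0 rose, against 5.79% and 5.93% of all features. Between 5 days and 1 day, 0 of 35 genes passed in FFFF hearts, against 6.25% of all features. There, 4 had an unadjusted p below 0.05, against 19.1%.

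The arrays separated the groups more often than the test did. At 5 days, all 3 I/R arrays lay below all 3 sham arrays for 28 of 35 genes in DKO hearts, against 18.2% of all features, and for 28 of 35 in FFFF hearts, against 18.5%. At 1 day, this held for 22 of 35 genes in DKO hearts, against 12.3% of all features, and for 23 of 35 in FFFF hearts, against 18%. The mean response of both genotypes, a contrast added after the data were seen, used 6 I/R and 6 sham arrays. In it, 15 genes fell and 1 (Acsl4) rose at 1 day, against 11.7% and 10.5% of all features. At 5 days, 29 genes fell and 0 rose, against 14.5% and 11.8%.

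These counts depended on single arrays. At 5 days in FFFF hearts, 28 genes passed without FFFF 5 days replicate 1, the array close to sham, against 13.2% of all features lower in that fit. Only 2 passed without FFFF 5 days replicate 3, against 3.75%, and 4 without FFFF 5 days replicate 2, against 4.58%. Without FFFF sham replicates 1, 2 and 3 there were 6, 6 and 9, against 6.15%, 5.18% and 6.7% of all features. Of the 20 genes, Ech1 and Acot1 passed whichever of the 6 arrays was left out. Acadm and Echs1 were lost without FFFF 5 days replicate 3 alone, and Eci1 and Etfb without FFFF 5 days replicates 2 and 3 in turn. Acadvl, Hadh and Etfa passed without FFFF sham replicate 3 or FFFF 5 days replicate 1. The other 11 passed without FFFF 5 days replicate 1 and in no other fit with an array left out. With sex as a covariate 12 genes passed, against 7.51% of all features lower, and in a fit of these 2 groups alone 0 passed, against 2.08%. Male arrays occur at 5 days only, so the fit with sex leans on the 1 female array of each genotype at that time.

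In DKO hearts at 5 days, 0 genes passed without any one array of the comparison, except 4 without DKO 5 days replicate 3, against 3.19% of all features lower there and 0.167% to 2.01% in the other fits. With sex as a covariate 0 passed, against 0.674%, and in a fit of the 2 groups alone 21 passed, against 7.92%. In fits of the compared groups alone, DKO hearts thus had more calls than FFFF hearts, the reverse of the model of the 6 groups. At 1 day in FFFF hearts, 12 passed without FFFF 1 day replicate 2, against 6.53% of all features lower, and 0 without any of the other 5 arrays, against 1.14% to 2.83%. The mean response at 5 days had between 26 and 30 passing genes whichever array was left out, against 11.6% to 16.3% of all features lower, and 16 with sex as a covariate, against 9.49%. At 1 day it had between 5 and 20, against 8.88% to 13.6%, and 6 without the array labelled DKO 1 day replicate 1, against 8.95%.

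**Figure D2:**
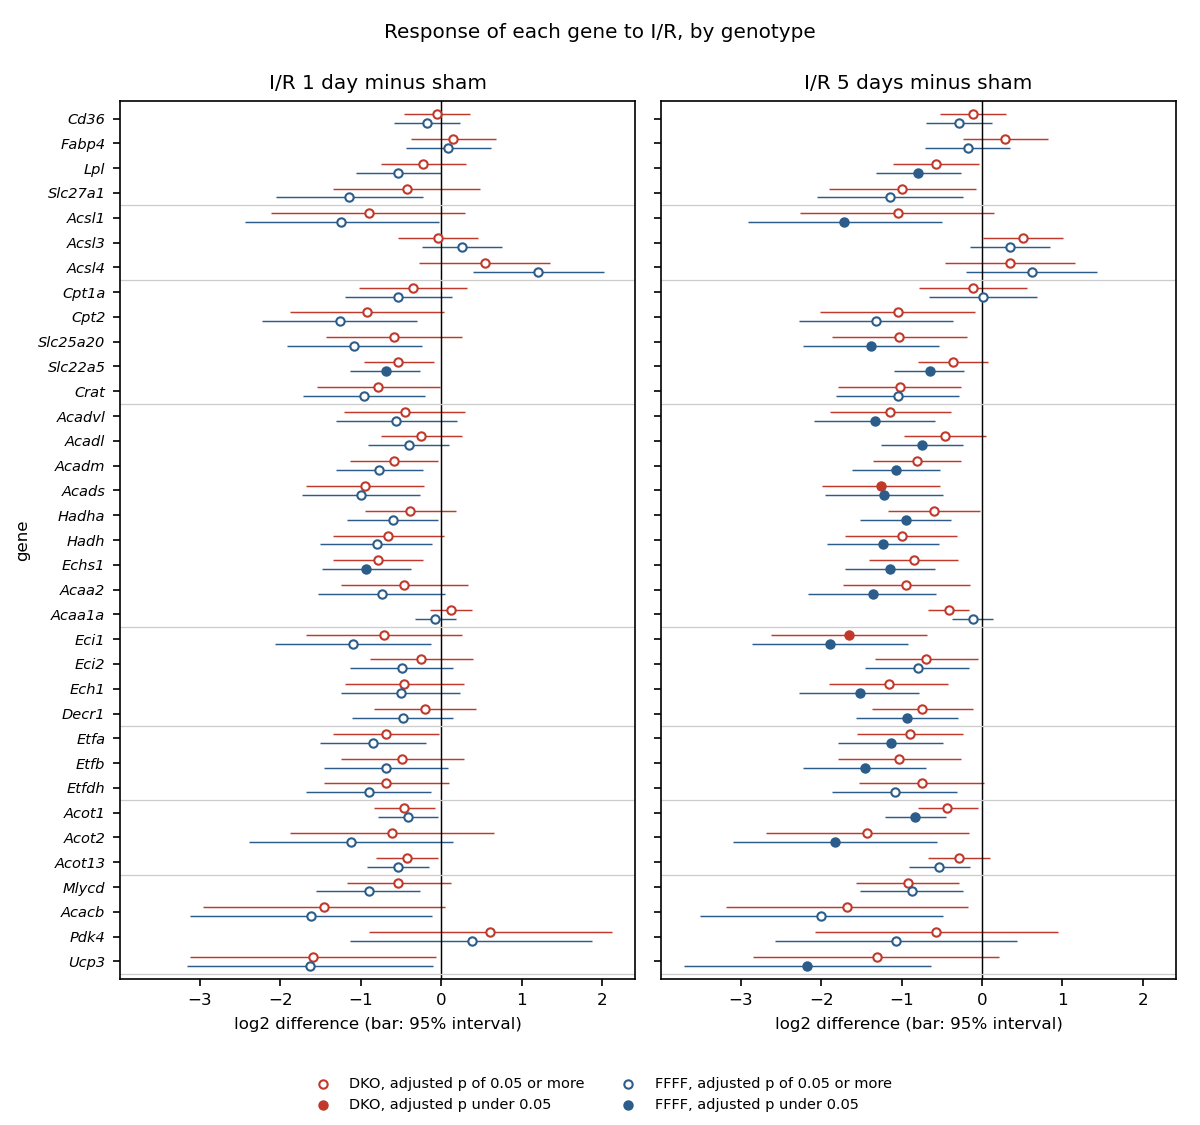
Log2 difference between I/R and sham of each gene (rows) at 1 day and at 5 days, in DKO (red, upper point) and FFFF hearts (blue, lower point), with 95% intervals from the fit and filled points for a limma adjusted p below 0.05. At 5 days, 20 points are filled for FFFF and 2 for DKO, and the intervals of both genotypes overlap for every gene. Filled points use the spread shared by all groups, and DKO had more calls than FFFF in fits of the compared groups alone.

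Of the 4 uptake genes, 0 fell in DKO hearts at 5 days and 1 (Lpl) in FFFF hearts, where 2.84% and 10% of all features fell. Lpl, the lipase that frees fatty acids from circulating triglycerides, had 12.74, 13.13 and 12.56 in DKO hearts at 1 day and 12.18, 12.51 and 12.70 at 5 days, against 12.97, 13.06 and 13.06 after sham. The FFFF values were 12.23, 13.15 and 12.84 at 1 day and 13.03, 12.32 and 12.09 at 5 days, against 13.26, 13.26 and 13.29 after sham. All I/R arrays of 5 days were thus below their sham arrays, and Lpl fell in FFFF hearts by 0.79 (standard error 0.25, adjusted p = 0.04). The difference in DKO hearts was -0.57 (adjusted p = 0.18).

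Slc27a1, a fatty acid transport protein of muscle, had 8.25, 9.38 and 7.97 in DKO hearts at 1 day and 7.60, 8.09 and 8.24 at 5 days, against 9.05, 9.02 and 8.83 after sham. FFFF hearts had 7.23, 8.94 and 8.06 at 1 day and 8.81, 7.56 and 7.87 at 5 days, against 9.15, 9.19 and 9.32. Only DKO 1 day replicate 2 reached the sham level. Slc27a1 did not pass within a genotype (adjusted p = 0.08 in FFFF hearts at 5 days), and in the mean response at 5 days it fell by 1.07 (adjusted p = 0.017).

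The fatty acid translocase Cd36 differed from sham at 5 days by -0.11 in DKO hearts (95% interval -0.52 to 0.30) and by -0.29 in FFFF hearts (95% interval -0.70 to 0.12). Fabp4, a fatty acid-binding protein known from adipocytes, macrophages and capillary endothelium, had 11.73, 11.42 and 11.62 in DKO hearts at 1 day and 12, 11.71 and 11.48 at 5 days, against 11.18, 11.26 and 11.87 after sham. For FFFF hearts the values were 11.47, 11.91 and 11.86 at 1 day and 11.96, 11.61 and 10.85 at 5 days, against 11.56, 11.79 and 11.62. The groups of Fabp4 overlapped in every comparison with sham. The 12 endothelial markers averaged 8.85 to 9.02 in DKO and 8.42 to 9.04 in FFFF hearts at 5 days, against 9.05 to 9.28 in DKO and 9.01 to 9.09 in FFFF sham hearts.

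Of the activating enzymes, Acsl1 was lower and Acsl4 was higher on most I/R arrays. Acsl1 is the main long-chain acyl-CoA synthetase of the heart. It had 10.61, 11.38 and 10.23 in DKO hearts at 1 day and 9.89, 10.61 and 11.28 at 5 days, against 11.73, 11.64 and 11.56 after sham. Arrays of FFFF hearts showed 9.74, 11.49 and 10.90 at 1 day and 11.54, 10.19 and 8.98 at 5 days, against 11.97, 11.95 and 11.91. Every I/R array was below every sham array of its genotype, with the lowest value on FFFF 5 days replicate 3. Acsl1 fell 3.26-fold in FFFF hearts at 5 days (log2 difference -1.71, adjusted p = 0.05, just under the threshold before rounding), and without that array the difference was -1.08 (adjusted p = 0.25 in limma). In DKO hearts it differed by -1.05 (adjusted p = 0.29).

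Acsl4, a synthetase known to prefer arachidonic acid, had 8.04, 6.08 and 7.88 in DKO hearts at 1 day and 7.34, 7.14 and 6.96 at 5 days, against 6.74, 6.82 and 6.83 after sham. In FFFF hearts it had 8.02, 7.85 and 8.16 at 1 day and 6.92, 7.48 and 7.87 at 5 days, against 6.71, 6.82 and 6.89. All arrays were above sham except DKO 1 day replicate 2, which was the lowest of all 18. The difference of FFFF hearts at 1 day was 1.20 (standard error 0.38, adjusted p = 0.054). In the mean response at 1 day, Acsl4 rose by 0.87 (adjusted p = 0.031), a call that was lost without 10 of the 12 single arrays in turn, where adjusted p lay between 0.051 and 0.081.

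Acsl3, known from lipid droplets, is a dim feature, and its differences from sham at 5 days were 0.51 in DKO (95% interval 0.01 to 1.01) and 0.35 in FFFF hearts (95% interval -0.15 to 0.85). It had 5.16, 4.58 and 5.40 in DKO hearts at 1 day and 6.00, 5.65 and 5.13 at 5 days, against 5.03, 5.16 and 5.08 after sham. FFFF hearts had 5.54, 5.23 and 5.78 at 1 day and 5.36, 5.54 and 5.92 at 5 days, against 5.45, 5.22 and 5.11.

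The change within the family is described by the difference between 2 of its genes on the same array, over the arrays of both genotypes (n = 6 for each time). These pairs were chosen with the values of their genes known, so their differences are given without a test. Acsl4 minus Acsl1 was higher than after sham by 1.94 at 1 day and by 1.86 at 5 days. It lay above all 6 sham arrays on 5 of 6 arrays of 1 day and on 6 of 6 arrays of 5 days. At 5 days the change was 1.40 in DKO and 2.32 in FFFF hearts. Acsl3 minus Acsl1 was higher than after sham by 1.18 at 1 day and by 1.81 at 5 days. Acsl3 is dim (mean of 5.26 in FFFF sham hearts) and had little room to fall, so this pair does not show a change of Acsl3. With only the 2 female arrays at 5 days, Acsl4 minus Acsl1 was higher by 2.28 and Acsl3 minus Acsl1 by 2.01.

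In the carnitine shuttle, 0 of 5 measured genes fell in DKO hearts at 5 days, against 2.84% of all features, and 2 of 5 in FFFF hearts, against 10%. Slc22a5 imports carnitine into the cell. It had 5.98, 6.31 and 6.02 in DKO hearts at 1 day and 6.10, 6.07 and 6.65 at 5 days, against 6.74, 6.64 and 6.5 after sham. The FFFF values were 5.90, 6.54 and 5.83 at 1 day and 6.43, 5.84 and 6.10 at 5 days, against 6.91, 6.62 and 6.81. Apart from DKO 5 days replicate 3, the I/R arrays lay below sham. Slc22a5 fell in FFFF hearts by 0.69 at 1 day (adjusted p = 0.042) and by 0.65 at 5 days (adjusted p = 0.038). In DKO hearts it differed by -0.53 at 1 day (adjusted p = 0.14).

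Slc25a20, the carrier that exchanges acylcarnitine for carnitine across the inner membrane, had 9.42, 9.58 and 8.79 in DKO hearts at 1 day and 8.29, 8.88 and 9.29 at 5 days, against 10, 9.92 and 9.63 after sham. FFFF hearts had 8.31, 9.77 and 9.02 at 1 day and 9.56, 8.56 and 8.08 at 5 days, against 10.14, 10.26 and 9.95. No I/R array reached its sham arrays. It fell 2.60-fold in FFFF hearts at 5 days (adjusted p = 0.026) and differed by -1.03 in DKO hearts (adjusted p = 0.13).

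Crat, the carnitine acetyltransferase, had 10.50, 11.33 and 10.78 in DKO hearts at 1 day and 10.07, 10.76 and 11.03 at 5 days, against 11.75, 11.74 and 11.44 after sham. For FFFF hearts the values were 10.32, 11.19 and 10.67 at 1 day and 11.52, 10.48 and 9.93 at 5 days, against 11.72, 11.65 and 11.70. The groups did not overlap within either genotype. Crat and the inner-membrane transferase Cpt2 passed only in the mean response, where they fell at 5 days by 1.04 and 1.18 (adjusted p = 0.0075 and 0.013).

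Cpt1a, the liver-type form of the enzyme that starts the shuttle, had 8.09, 9.25 and 8.06 in DKO hearts at 1 day and 8.54, 8.81 and 8.77 at 5 days, against 8.74, 8.79 and 8.93 after sham. Arrays of FFFF hearts showed 7.57, 8.87 and 8.34 at 1 day and 8.62, 8.73 and 9.04 at 5 days, against 9.01, 8.64 and 8.71. Replicates 1 and 3 of both genotypes were low at 1 day and replicates 2 were not. At 5 days its difference was -0.11 in DKO (95% interval -0.78 to 0.56) and 0.01 in FFFF hearts (95% interval -0.66 to 0.68).

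**Figure D3:**
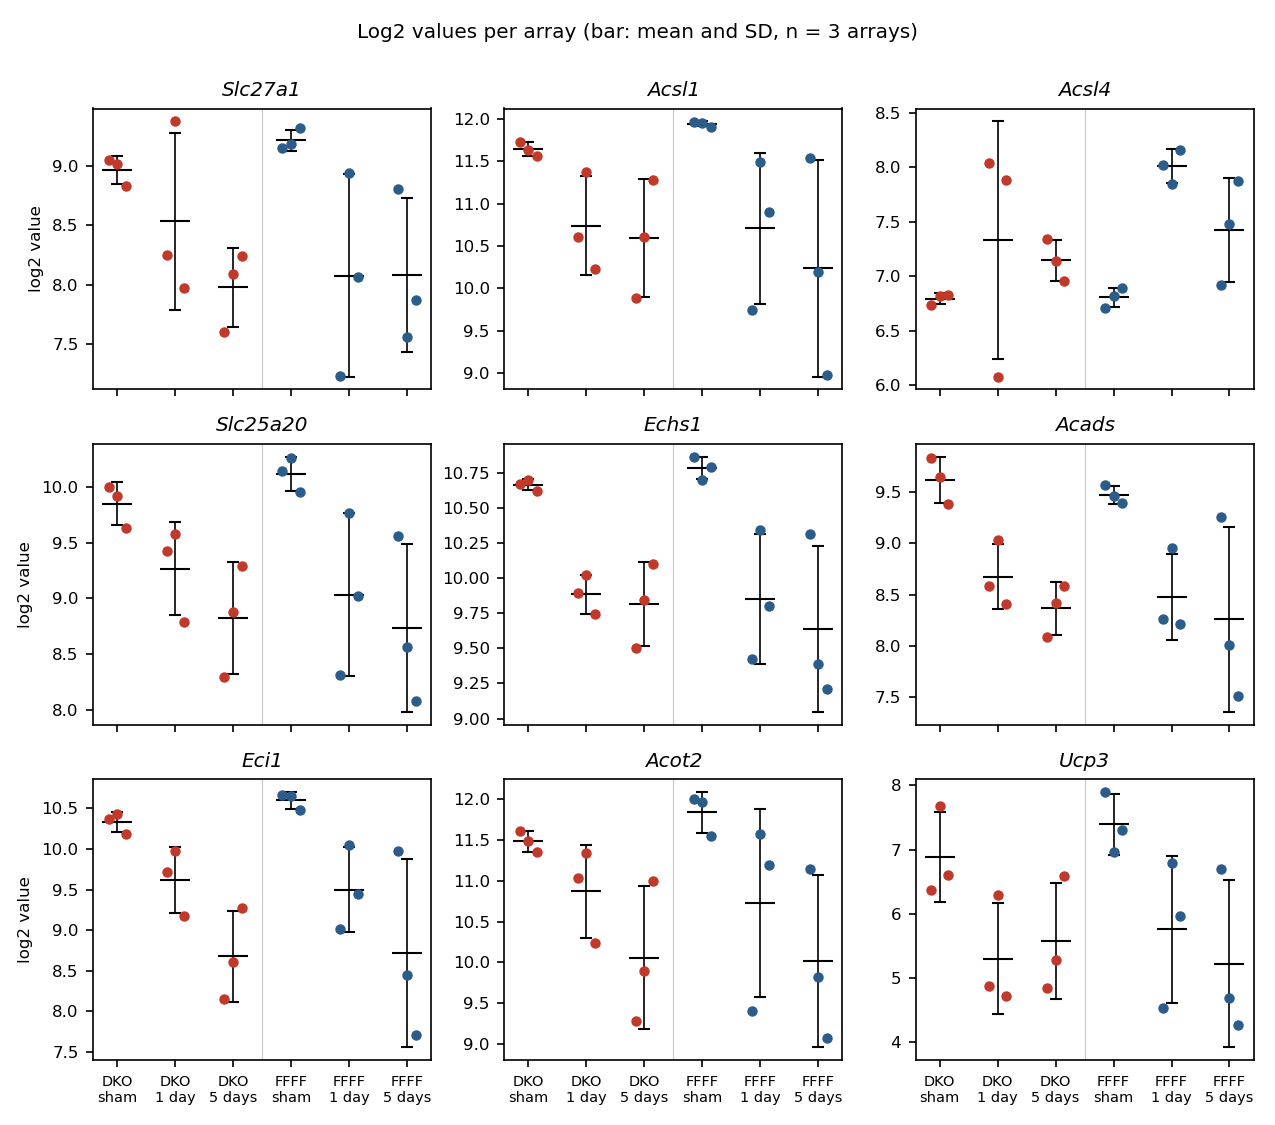
Log2 values of 9 genes on each array, with DKO groups (red) left of FFFF groups (blue), each in the order sham, 1 day and 5 days, and with the group mean and SD (n = 3 arrays) as bars. The sham arrays lie close together in most panels, the I/R arrays spread downward, and Acsl4 spreads upward except for 1 DKO array of 1 day at 6.08.

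Beta-oxidation proper, the step with the most measured genes, held the most calls of all steps in FFFF hearts at 5 days. In FFFF hearts at 5 days, 8 of its 9 measured genes fell, by 0.75 (Acadl) to 1.36 (Acaa2), against 10% of all features, and in DKO hearts 1 of 9 fell, against 2.84%. Echs1, the hydratase of the second reaction, had 9.89, 10.02 and 9.74 in DKO hearts at 1 day and 9.50, 9.84 and 10.10 at 5 days, against 10.67, 10.70 and 10.62 after sham. In FFFF hearts it had 9.42, 10.34 and 9.80 at 1 day and 10.31, 9.39 and 9.21 at 5 days, against 10.86, 10.70 and 10.79. All 12 I/R arrays were below all 6 sham arrays, including the 3 arrays that stayed close to sham elsewhere. In DKO hearts Echs1 differed by -0.78 at 1 day (adjusted p = 0.091) and by -0.85 at 5 days (adjusted p = 0.064). It fell in FFFF hearts at 1 day by 0.93 (adjusted p = 0.034) and at 5 days by 1.14 (adjusted p = 0.0089).

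Acads, the dehydrogenase of short-chain acyl-CoA, had 8.59, 9.03 and 8.41 in DKO hearts at 1 day and 8.09, 8.42 and 8.59 at 5 days, against 9.83, 9.65 and 9.38 after sham. The FFFF values were 8.26, 8.96 and 8.22 at 1 day and 9.26, 8.01 and 7.51 at 5 days, against 9.57, 9.46 and 9.39. It is 1 of 2 genes that passed at 5 days in both genotypes, with a fall of 1.25 in DKO (adjusted p = 0.045) and 1.22 in FFFF hearts (adjusted p = 0.025). The DKO call was lost when any of the 6 DKO arrays of the comparison was left out, with adjusted p between 0.055 and 0.19.

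The dehydrogenases of longer chains followed the same order in both genotypes. At 5 days, Acadvl (very long chains) differed by -1.14 in DKO and -1.33 in FFFF hearts, Acadm (medium chains) by -0.81 and -1.07, and Acadl (long chains) by -0.46 and -0.75. Hadha, the α subunit of the trifunctional protein, differed by -0.60 in DKO and -0.95 in FFFF hearts, and Hadh, the dehydrogenase of shorter hydroxyacyl-CoA, by -1.0 and -1.23. All 5 passed in FFFF hearts, where 10% of all features fell, and 0 in DKO hearts, where 2.84% fell. In the difference of response at 5 days, 0 of 35 genes had a limma unadjusted p below 0.05, against 4% of all features.

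Acaa1a, the thiolase of peroxisomes, was the 1 gene of the 9 that did not pass in FFFF hearts at 5 days (difference -0.11). It had 8.05, 7.96 and 7.63 in DKO hearts at 1 day and 7.51, 7.37 and 7.16 at 5 days, against 7.74, 7.88 and 7.66 after sham. FFFF hearts had 7.62, 7.56 and 7.63 at 1 day and 7.65, 7.43 and 7.61 at 5 days, against 7.58, 7.57 and 7.87. The FFFF groups overlapped at every time, whereas all DKO arrays of 5 days lay below sham. The difference in DKO hearts was -0.41 (adjusted p = 0.057), and in the mean response at 5 days Acaa1a fell by 0.26 (adjusted p = 0.034), as did the other 8 genes of this step by 0.60 or more. Acaa1a kept that call in 5 of 12 fits with 1 array left out (limma adjusted p up to 0.087). Between 1 and 5 days it fell in DKO hearts by 0.53 (adjusted p = 0.024), the 1 gene of 35 that fell between the days in DKO hearts, where 0 rose, against 2.14% and 2.45% of all features. The call was lost without the array labelled DKO 1 day replicate 1 (difference -0.44, adjusted p = 0.11) and without DKO 5 days replicate 2 or 3 (adjusted p = 0.072 and 0.085). The response of Acaa1a at 5 days did not differ between the genotypes beyond the spread (difference -0.30, 95% interval -0.66 to 0.06).

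The auxiliary enzymes prepare unsaturated fatty acids for the cycle, and at 5 days 1 of 4 fell in DKO hearts, against 2.84% of all features, and 3 of 4 in FFFF hearts, against 10%. The isomerase Eci1 had 9.72, 9.97 and 9.17 in DKO hearts at 1 day and 8.15, 8.61 and 9.27 at 5 days, against 10.37, 10.43 and 10.19 after sham. For FFFF hearts the values were 9.01, 10.05 and 9.44 at 1 day and 9.98, 8.45 and 7.71 at 5 days, against 10.67, 10.65 and 10.48. None of the 12 I/R arrays reached sham. Eci1 fell 3.14-fold in DKO (adjusted p = 0.046) and 3.70-fold in FFFF hearts at 5 days (adjusted p = 0.012). The DKO call was lost without any one DKO array of the comparison, except without DKO 5 days replicate 3.

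Ech1, an isomerase of dienoyl-CoA, had 12.52, 12.18 and 11.89 in DKO hearts at 1 day and 11.05, 11.30 and 12.14 at 5 days, against 12.70, 12.70 and 12.56 after sham. Arrays of FFFF hearts showed 12.25, 12.67 and 12.25 at 1 day and 12.29, 11.16 and 10.65 at 5 days, against 13.10, 12.84 and 12.73. The I/R and sham arrays were apart in both genotypes. It fell 2.88-fold in FFFF hearts at 5 days (adjusted p = 0.009) and differed by -1.16 in DKO hearts (adjusted p = 0.062). The reductase Decr1 fell in FFFF hearts by 0.93, and Eci2 differed by -0.80 (adjusted p = 0.08).

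The electron transfer flavoprotein takes the electrons of the dehydrogenases. Its subunit Etfa had 9.74, 10 and 9.38 in DKO hearts at 1 day and 9.23, 9.44 and 9.84 at 5 days, against 10.42, 10.33 and 10.42 after sham. In FFFF hearts it had 9.18, 10.13 and 9.60 at 1 day and 10.19, 8.88 and 8.99 at 5 days, against 10.48, 10.63 and 10.36. All 12 I/R arrays were below all 6 sham arrays.

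Its partner Etfb had 10.55, 10.62 and 10.23 in DKO hearts at 1 day and 9.64, 9.99 and 10.15 at 5 days, against 10.96, 11.02 and 10.88. The FFFF values were 10.22, 10.89 and 10.41 at 1 day and 10.88, 9.42 and 8.89 at 5 days, against 11.23, 11.16 and 11.19. At 5 days both subunits fell in FFFF hearts, Etfa by 1.13 (adjusted p = 0.021) and Etfb by 1.46 (adjusted p = 0.013). They differed in DKO hearts by -0.89 and -1.03 (adjusted p = 0.097 each). Etfdh, which hands the electrons to ubiquinone, differed by -0.75 in DKO (adjusted p = 0.23) and by -1.08 in FFFF hearts (adjusted p = 0.052).

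Thioesterases release the fatty acid from CoA again. Acot2, the mitochondrial form, had 11.04, 11.34 and 10.24 in DKO hearts at 1 day and 9.28, 9.90 and 11.00 at 5 days, against 11.61, 11.49 and 11.35 after sham. FFFF hearts had 9.41, 11.58 and 11.19 at 1 day and 11.15, 9.82 and 9.07 at 5 days, against 12, 11.97 and 11.55. The spread between I/R arrays was wide, with FFFF 1 day replicate 2 inside the sham range. Acot2 fell 3.56-fold in FFFF hearts at 5 days (adjusted p = 0.046) and differed by -1.43 in DKO hearts (adjusted p = 0.16).

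Acot1, the cytosolic form, was dim. It had 4.30, 4.35 and 4.39 in DKO hearts at 1 day and 4.48, 4.19 and 4.45 at 5 days, against 4.77, 5.04 and 4.59 after sham. For FFFF hearts the values were 4.45, 5.15 and 4.78 at 1 day and 4.40, 4.49 and 4.24 at 5 days, against 5.11, 5.55 and 4.97. It had the smallest adjusted p of the 35 genes in FFFF hearts at 5 days (fall of 0.83, adjusted p = 0.0066), although its values there lie below the arrays' median of 4.85, where a log2 difference can understate a change. Acot1 and Acot2 have closely similar sequences, and the sources used here do not give the probes of each feature. The difference between them is not read, because Acot1 could hardly fall further.

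Acot13 had 10.36, 10.80 and 10.70 in DKO hearts at 1 day and 10.56, 10.78 and 10.93 at 5 days, against 11.06, 11.10 and 10.97 after sham. Arrays of FFFF hearts showed 10.25, 10.89 and 10.61 at 1 day and 10.93, 10.57 and 10.25 at 5 days, against 11.04, 11.14 and 11.17. All 12 I/R arrays were below all 6 sham arrays by a small margin, and its difference at 5 days was -0.29 in DKO (adjusted p = 0.38) and -0.53 in FFFF hearts (adjusted p = 0.053).

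At 5 days, when 2.84% of all features fell in DKO and 10% in FFFF hearts, 0 of the 4 genes that control the use of fatty acids fell in DKO hearts and 1 (Ucp3) in FFFF hearts. Ucp3, a mitochondrial carrier of muscle, had 4.88, 6.29 and 4.72 in DKO hearts at 1 day and 4.85, 5.28 and 6.59 at 5 days, against 6.37, 7.68 and 6.61 after sham. In FFFF hearts it had 4.53, 6.79 and 5.96 at 1 day and 6.70, 4.69 and 4.27 at 5 days, against 7.90, 6.97 and 7.31. DKO arrays of 5 days overlapped with sham, whereas FFFF arrays did not. Ucp3 fell 4.51-fold in FFFF hearts at 5 days (95% interval of the log2 difference -3.70 to -0.64, adjusted p = 0.049) and differed by -1.31 in DKO hearts (adjusted p = 0.3). On 2 of the 3 FFFF arrays it lay below the arrays' median of 4.85, where a log2 difference can understate a change. The FFFF call was lost without any of FFFF sham replicates 1, 2 and 3 or FFFF 5 days replicates 2 and 3, with adjusted p between 0.082 and 0.21.

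Acacb makes malonyl-CoA, which blocks entry into the shuttle, and Mlycd removes it. Acacb had 7.40, 9.29 and 7.60 in DKO hearts at 1 day and 6.88, 8.13 and 8.59 at 5 days, against 9.56, 9.60 and 9.47 after sham. The FFFF values were 7.01, 9.18 and 7.98 at 1 day and 9.12, 7.66 and 6.26 at 5 days, against 9.67, 9.51 and 9.84. Every I/R array was below sham, and the highest and lowest arrays of each I/R group were over 1 log2 unit apart. Acacb did not pass within a genotype (adjusted p = 0.064 in FFFF hearts at 5 days), and it fell 3.57-fold in the mean response at 5 days (adjusted p = 0.014).

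Mlycd had 6.57, 7.36 and 6.41 in DKO hearts at 1 day and 6.13, 6.29 and 6.73 at 5 days, against 7.07, 7.46 and 7.39 after sham. FFFF hearts had 6.16, 6.96 and 6.27 at 1 day and 7.09, 5.95 and 6.44 at 5 days, against 7.25, 7.44 and 7.40. Only DKO 1 day replicate 2 lay within the sham range. The mean response of Mlycd was a fall of 0.72 at 1 day and 0.90 at 5 days (adjusted p = 0.027 and 0.0064). With 1 array left out, the Mlycd call held in 4 of 12 fits at 1 day (limma adjusted p up to 0.071) and that of Acacb in 2 of 12. At 5 days both calls held in 12 of 12, so that maker and remover of malonyl-CoA were lower together at 5 days.

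Pdk4, which shuts off glucose oxidation at pyruvate dehydrogenase, had 11.28, 10.77 and 9.51 in DKO hearts at 1 day and 8.79, 9.64 and 9.57 at 5 days, against 9.04, 10.31 and 10.38 after sham. For FFFF hearts the values were 9.29, 11.72 and 10.48 at 1 day and 10.47, 8.90 and 7.79 at 5 days, against 10.61, 9.68 and 10.08. Within both genotypes, its I/R arrays overlapped with sham at both days, and its SE of 0.70 was wider than its differences at 1 day, 0.61 in DKO and 0.38 in FFFF hearts.

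DKO and FFFF hearts were compared directly at each time. After sham, 32 of 35 genes were lower in DKO, with a median of -0.16, against -0.004 over all features. For 12 of them all DKO arrays lay below all FFFF arrays, against 8.07% of all features, among them Lpl, Acsl1, Hadha, Eci1 and Etfb. None of the 35 genes passed the test (smallest adjusted p = 0.79, for Acot1), against 0.00817% of all features, and 1 had an unadjusted p below 0.05, against 5.96%. In the same comparison the fibroblast markers had a median of 0.76, the leukocyte markers 0.30 and the cardiomyocyte markers -0.01. None of these markers passed either, and their part in the sham difference was not tested. At 1 day the median difference of the 35 genes was 0.04 and 0 genes passed, against 0% of all features, and at an unadjusted p below 0.05 there were 2, against 6.7%. At 5 days the median was 0.10 and 0 genes passed, against 0%, with 0 at an unadjusted p below 0.05, against 2.41%. Each of the other fits tried gave 0 calls as well. In the model of the 6 groups, the deleted genes Camk2d and Camk2g did not pass at any time either. Their differences were -1.37 and -0.54 after sham, -1.05 and -0.74 at 1 day, and -0.91 and -0.9 at 5 days. A lack of calls therefore does not show that the genotypes are alike in the fatty acid genes. The medians of 1 and 5 days had no stable sign, with -0.20 to 0.27 and -0.21 to 0.50 when single arrays were left out.

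The response to I/R was also compared between the genotypes. DKO minus FFFF, the median difference in response was 0.18 at 1 day and 0.26 at 5 days. It was above 0 for 32 genes at 1 day and for 30 at 5 days. At 1 day 0 genes passed, against 0.00409% of all features, with 0 at an unadjusted p below 0.05, against 4.6%. At 5 days 0 passed, against 0%, with 0 at an unadjusted p below 0.05, against 4%, and each of the other fits tried gave 0 calls. With single arrays left out the medians were -0.06 to 0.41 at 1 day and 0.01 to 0.63 at 5 days. The intervals were wide. For Acsl1 the difference in response at 5 days was 0.65 with a standard error of 0.80, and for Ucp3 it was 0.86 with a standard error of 1.01, with 95% intervals of -1.05 to 2.36 and -1.30 to 3.02. Because the responses share their sham arrays with the comparison of the genotypes after sham, lower DKO sham values enter both.

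Among marker lists of the cell types of the ventricle, the median of the cardiomyocyte markers was below sham, like that of the fatty acid genes. Medians of the leukocyte and macrophage markers were above sham, as were those of the fibroblast markers at 5 days. At 1 day the fibroblast median was -0.01 in DKO and 0.54 in FFFF hearts. The 9 measured macrophage markers had medians of 0.71 in DKO and 0.93 in FFFF hearts at 1 day. At 5 days these were 2.02 in DKO and 2.43 in FFFF hearts. The 8 adipocyte and 12 endothelial markers had medians of -0.10 to -0.02 and -0.30 to -0.02 in the comparisons with sham. The 8 neutrophil markers were higher at 1 day (median 1.76 in DKO and 3.21 in FFFF hearts) and had medians of 0.05 in DKO and 0.27 in FFFF hearts at 5 days. The 18 cardiomyocyte markers had a median shift of -0.35, -0.04 and -0.37 on the DKO arrays of 1 day and -0.66, -0.27 and -0.24 on those of 5 days. On FFFF arrays it was -0.49, -0.15 and -0.37 at 1 day and -0.15, -0.58 and -0.85 at 5 days. The fatty acid genes shifted by -0.50, -0.26 and -0.76 and by -1.18, -0.85 and -0.48 on the same DKO arrays, and by -1.15, -0.25 and -0.77 and by -0.31, -1.22 and -1.58 on the FFFF arrays. The cardiomyocyte markers lie at the top of the scale, 17 of 18 above the 99th percentile of all features after sham and Actc1 within 0.01 of the table's highest value of 13.93 on all 6 sham arrays, where a log2 difference can understate a change. The sizes of both shifts are therefore not compared, and the scaling to this list has the same limit. Several fatty acid genes lie as high in FFFF sham hearts, such as Lpl (13.27), Acadm (13.12) and Ech1 (12.89). Their differences have this limit as well.

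The 10 leukocyte markers averaged 7.20 to 8.94 in DKO and 7.79 to 9.04 in FFFF hearts at 1 day and 8.34 to 8.93 in DKO and 7.58 to 10.46 in FFFF hearts at 5 days, against 6.5 to 6.62 in DKO and 6.24 to 6.31 in FFFF sham hearts. The 10 fibroblast markers averaged 10.84 to 11.44 in DKO and 10.46 to 11.27 in FFFF hearts at 5 days, against 9.0 to 9.42 and 8.34 to 8.43 after sham. The part of these cells in the differences was not tested. When each array was scaled to its mean of the cardiomyocyte markers, the median of all features shifted up by 0.43 in DKO and 0.56 in FFFF hearts at 5 days. The median of the fatty acid genes was then -0.41 in DKO and -0.49 in FFFF hearts, with 2 genes lower and 0 higher in DKO hearts, against 0.474% and 4.73% of all features. In FFFF hearts 16 were lower and 2 higher, against 2.64% and 56.3%. At 1 day, where all features shifted up by 0.32 in DKO and 0.34 in FFFF hearts, the medians were -0.15 and -0.34. In DKO hearts 0 genes were lower and 0 higher, against 0.482% and 0.997% of all features, and in FFFF hearts 0 were lower and 1 higher, against 1.61% and 4.58%.

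**Figure D4:**
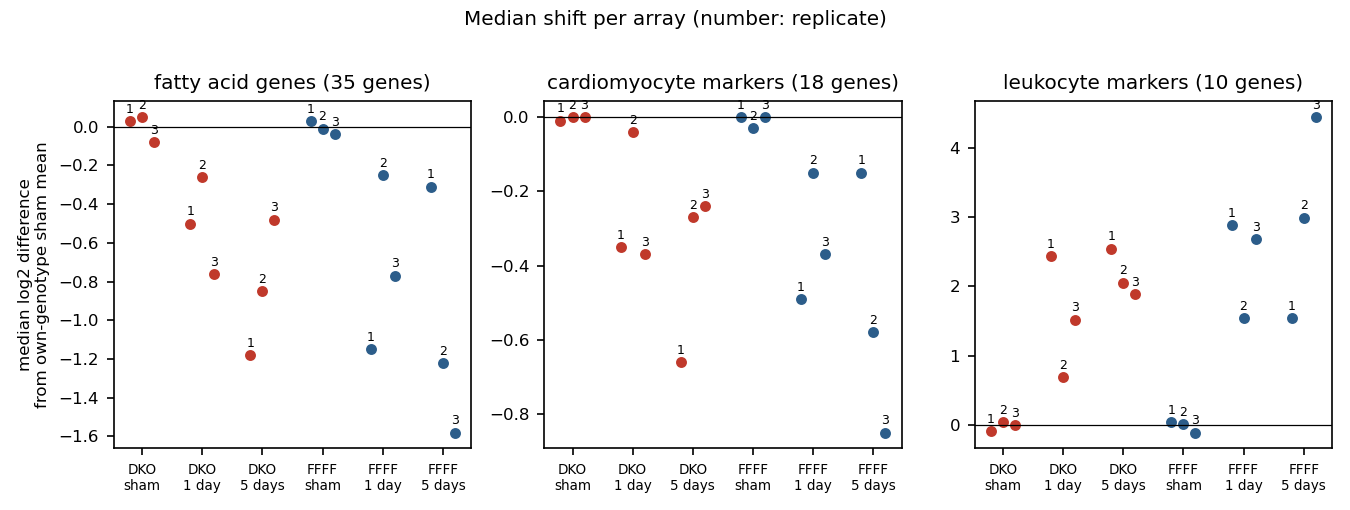
Median log2 difference from the mean of the sham arrays of the same genotype over the 35 fatty acid genes, 18 cardiomyocyte markers and 10 leukocyte markers, for each array (DKO red, FFFF blue, numbers are replicates). The 3 panels have different vertical scales; the arrays with small shifts in fatty acid genes, such as FFFF 5 days replicate 1 at -0.31, have small shifts in the cardiomyocyte markers (-0.15 on that array).

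A list of 36 other genes of lipid handling, oxidation, ketone body use and uncoupling was looked at beside these, of which 35 were measured. At 5 days, 4 were lower and 1 was higher in DKO hearts (median -0.48), against 2.84% and 3.23% of all features. In FFFF hearts 14 were lower and 3 were higher (median -0.65), against 10% and 8.26%. At 1 day, 5 were lower and 1 was higher in DKO hearts, against 5.11% of all features in either direction. In FFFF hearts of that day 11 were lower and 2 were higher, against 5.79% and 5.93%. Angptl4, a secreted inhibitor of lipoprotein lipase, rose at 1 day by 3.26 in DKO (adjusted p = 0.024) and by 4.12 in FFFF hearts (adjusted p = 0.0052). Oxct1, which starts the use of ketone bodies, fell at 1 day by 0.70 in DKO (adjusted p = 0.032) and by 0.77 in FFFF hearts (adjusted p = 0.013). At 5 days, Acad9, an acyl-CoA dehydrogenase needed for complex I assembly, fell by 0.85 in DKO (adjusted p = 0.012) and by 0.93 in FFFF hearts (adjusted p = 0.0026). Hsd17b10, a mitochondrial hydroxyacyl-CoA dehydrogenase, fell by 0.69 (adjusted p = 0.026) and 1.13 (adjusted p = 0.00098) in the same order.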

How the data were processed

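The authors deposited log2 expression values, made with RMA (version not given in the sources used here) and quantile normalization from Affymetrix mouse gene 2.0 ST arrays, with a custom chip definition (version 18) of 1 feature per Entrez gene. No value was transformed further, and 3 arrays a group set the precision. All 24479 features were fitted in one model of the 6 groups (12 residual degrees of freedom) with limma 3.58.1 in R 4.3.3 and eBayes, with Benjamini-Hochberg adjustment over all features and a threshold of 0.05. The method was tested on simulated data. The genes, steps and lists were chosen with earlier results of these data known. Values were printed per array for the member with the smallest p of each step in each comparison with sham, for that of each genotype comparison, and for the isoform pairs. Acacb and Pdk4 were added after their values were seen. Isoform pairs were compared with exact permutation tests (SciPy 1.17.1) over 3 measured pairs and 2 days. The pairs were chosen with their values known, so their p-values are not given. The pairs with Cpt1b and Fabp3 were not run.

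The numbers of the labels were checked for pairing. Same-numbered arrays of DKO and FFFF hearts at 1 day deviated together (r = 0.382, 0.529 and 0.36). Numbers were therefore taken as pairs for that comparison in an alternative fit, from the values alone. An r as high also occurred between other numbers (0.571 for FFFF 1 day replicate 2 and FFFF 5 days replicate 1). These r values do not show that the arrays were paired. The results given for it come from the unpaired model of the 6 groups. Over all pairs of groups, the median r was -0.005 for the same number and -0.008 for other numbers. Alternatives were a variance trend, array weights, gene-wise analysis of variance (the study's method, with the threshold used here and not the study's stricter one), fits of the compared groups only, a filter keeping features above the 40th percentile in at least 3 arrays, median centring, scaling to cardiomyocyte markers, the replicate block, sex as a covariate and each array left out.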

Additional observations from a re-analysis of the deposited data

How the results depend on the processing

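Medians of the 35 genes kept their sign under every whole-data alternative in the comparisons with sham. The counts of genes that passed moved more. Shares of all features are not given beside the counts of this section. A moved count is therefore not read as a change of these genes against all features. In FFFF hearts at 1 day the count of 2 became 19 with array weights, 0 with gene-wise analysis of variance, 8 with only the compared groups in the fit, 8 with the filter on dim features, 1 (higher) with scaling to the cardiomyocyte markers and 17 without replicate 2 of both genotypes at 1 day, an alternative chosen after seeing the data. In DKO hearts at 1 day 0 became 2 with array weights, 1 with only the compared groups and 3 without replicate 2 of both genotypes. In FFFF hearts at 5 days 20 became 13 with analysis of variance, 0 with only the compared groups and 12 with sex as a covariate. In DKO hearts at 5 days 2 became 23 with array weights, 0 with analysis of variance, 21 with only the compared groups, 7 with the filter and 0 with sex. Between the days, 0 in FFFF hearts became 3 with array weights and 1 without replicate 2 of both genotypes, and 1 in DKO hearts became 0 with the intensity trend, with only the compared groups, with scaling and with sex. In the mean of both genotypes, 16 at 1 day became 10 with analysis of variance and 29 at 5 days became 16 with sex. In the weighted fit, FFFF 5 days replicate 2 had a weight of 3.83, against 0.40 and 0.50 for replicates 1 and 3. DKO 5 days replicate 2 had 2.61, against 1.15 and 0.83 for replicates 1 and 3. The causes were not tested.

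With the replicate block, 1 gene passed in FFFF hearts at 1 day, 13 in FFFF hearts at 5 days and 0 in DKO hearts at 5 days. The shares of all features in this fit are not given, so these counts are not read against them. Other counts stayed within 1.5 times, and with only the 2 groups of 1 day and the block, 0 passed between the genotypes.

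With the scaling, the medians at 5 days were -0.41 in DKO, -0.49 in FFFF and -0.43 in both. Genes that changed sign under the scaling were, in DKO hearts at 1 day, Cd36 (0.27), Lpl (0.10), Acsl3 (0.27), Acadl (0.07), Eci2 (0.07) and Decr1 (0.11), and in FFFF hearts at 1 day, Cd36 (0.18) and Acaa1a (0.28). At 5 days these were Cd36 (0.33), Cpt1a (0.33), Slc22a5 (0.09), Acaa1a (0.03), Acot1 (0.02) and Acot13 (0.16) in DKO hearts and Cd36 (0.29), Fabp4 (0.40), Acaa1a (0.47) and Acot13 (0.05) in FFFF hearts. In the mean of both they were Cd36 (0.22) and Acadl (0.01) at 1 day and Cd36 (0.31), Cpt1a (0.46), Slc22a5 (0.01), Acaa1a (0.25) and Acot13 (0.10) at 5 days. Array weights turned Acsl3 in DKO hearts at 1 day (0.07) and Cpt1a in FFFF hearts at 5 days (-0.06). Sex as a covariate turned Fabp4 (-0.14) and Cpt1a (0.04) in DKO hearts at 5 days.

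The next counts are ranges without the shares of all features and are not read against them. Leaving out 1 array gave 0 to 1 genes in DKO and 0 to 12 in FFFF hearts at 1 day, and 0 to 4 in DKO and 2 to 28 in FFFF hearts at 5 days. Between the days it gave 0 to 2 in DKO hearts (0 without DKO 1 day replicate 1 or DKO 5 days replicates 2 and 3, 2 without DKO 1 day replicate 2) and 0 to 5 in FFFF hearts (5 without FFFF 5 days replicate 1). It gave 5 to 20 and 26 to 30 in the mean of both at 1 and 5 days, and medians of -1.48 to -0.82 in FFFF hearts at 5 days and of -0.21 to 0.50 between the genotypes at 5 days. Genes that changed sign were Cpt1a (-0.06, -0.03 and -0.11 without FFFF sham replicates 2 and 3 and FFFF 5 days replicate 3, up to 0.12) and Fabp4 (-0.43 to 0.13, positive without FFFF 5 days replicate 3) in FFFF hearts at 5 days. In FFFF hearts at 1 day these were Acaa1a (-0.12 to 0.03, positive without FFFF sham replicate 3), Cd36 (-0.36 to 0.10, positive without FFFF 1 day replicate 1) and Pdk4 (-0.23 to 0.98, negative without FFFF 1 day replicate 2, or at -0.23 without replicate 2 of both genotypes). In DKO hearts at 1 day they were Acsl3 (-0.22 to 0.19, positive without DKO 1 day replicate 2, or at 0.19 without replicate 2 of both genotypes) and Cd36 (-0.13 to 0.05, positive without DKO 1 day replicate 3).

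For the pairs of related genes, female arrays at 5 days gave 2.01 (Acsl3 minus Acsl1), 2.28 (Acsl4 minus Acsl1) and 0.97 (Acot1 minus Acot2). Leaving out 1 array gave 0.93 to 1.45 and 1.46 to 2.08 for Acsl3 minus Acsl1 at 1 and 5 days, 1.68 to 2.39 and 1.46 to 2.16 for Acsl4 minus Acsl1, and 0.17 to 0.58 and 0.83 to 1.22 for Acot1 minus Acot2. Their p-values are not used, and Acot1 lies so low at 5 days that its pair says nothing of the 2 genes. Acsl3 is dim as well, so its pair does not show a change of Acsl3.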
